A study of Mus musculus with 6 samples.

Results

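Mature neutrophils low in granule mRNA were chosen among CD45+ (leukocyte) cells of the mouse knee synovium by a rule on mRNA content. A cell was taken when S100a8 and S100a9 together made up at least 10% of its unique molecular identifiers (UMIs, each standing for 1 captured mRNA molecule) and Ngp, Camp and Ltf together made up less than 0.5%. The rule took 4150 of 32953 cells, or 12.6% (exact Clopper-Pearson 95% interval 12.24–12.96). The cells came from C57BL/6 mice, bought at 8 weeks of age and kept for some weeks before use, that had been immunized subcutaneously with 10 μg methylated bovine serum albumin (mBSA) in complete Freund's adjuvant and challenged in the knee with 100 μg mBSA on day 21, a model called antigen-induced arthritis. Joints were taken 3 days after the challenge. All 6 samples shared the immunization and the challenge. The samples differed in the intraperitoneal treatment given from day 21, which was the vehicle phosphate-buffered saline (PBS) in 2 samples and 300 μg of PEPITEM, an immunoregulatory peptide given here with a polyethylene glycol tail, in 4. There was no sample of an unchallenged joint. Cell barcodes carried a library number from 1 to 6, but no label tied a number to a treatment. PBS and PEPITEM were therefore not compared, the 6 libraries are given by number, and every value below is a description with no test between conditions.

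Neutrophils are short-lived granulocytes made in the bone marrow. While they mature there they transcribe the genes of their granule proteins in waves, first those of the azurophil granules, then those of the secondary granules and last those of the gelatinase granules. They stop dividing on the way, before the last of these waves, and then leave for the blood and inflamed tissue. In an inflamed joint neutrophils answer chemokines through CXCR2, take up immune complexes, and release interleukin 1, chemokines, proteases and lipid mediators. S100a8 and S100a9 encode the subunits of calprotectin, the main protein of the neutrophil cytosol. Ngp (neutrophilic granule protein), Camp (cathelicidin) and Ltf (lactoferrin) encode secondary granule proteins.

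The rule thus asks for a high share of mRNA from a gene pair of the neutrophil cytosol and a low share from 3 secondary granule genes. S100a8 and S100a9 lie 22596 bases apart on chromosome 3, whereas Camp, Ngp and Ltf lie on chromosome 9, with 570129 bases between Camp and Ngp and 596258 bases between Ngp and Ltf (GRCm38, GENCODE annotation). The bases just upstream of the start are shown for the 5 rule genes and for Retnlg, Il1b and Cxcr2, 3 neutrophil and cytokine genes followed below, because the rule and the results turn on them. The sequences are from RefSeq (GRCm38.p6) and end at the last base before the annotated start. They lie, written 5′ to 3′ along the gene's strand, as follows: S100a8 at chr3:90668828-90668977 on the plus strand, S100a9 at chr3:90695722-90695871 on the minus strand, Ngp at chr9:110419597-110419746 on the plus strand, Camp at chr9:109849618-109849706 on the minus strand, Ltf at chr9:111019121-111019270 on the plus strand, Retnlg at chr16:48872458-48872607 on the plus strand, Il1b at chr2:129371140-129371289 on the minus strand and Cxcr2 at chr1:74153839-74153988 on the plus strand. Capitals mark matches, on either strand, to TTGCNNAA, a C/EBP-type motif found in 5.46% of 32851 promoter windows of 150 bases, or to GAGGAA, a PU.1-type motif found in 14.5% of them. C/EBP proteins and PU.1 are transcription factors of the myeloid lineage.
S100a8: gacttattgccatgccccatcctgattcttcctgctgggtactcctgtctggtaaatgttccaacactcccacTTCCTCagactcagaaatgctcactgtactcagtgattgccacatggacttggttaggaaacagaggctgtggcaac
S100a9: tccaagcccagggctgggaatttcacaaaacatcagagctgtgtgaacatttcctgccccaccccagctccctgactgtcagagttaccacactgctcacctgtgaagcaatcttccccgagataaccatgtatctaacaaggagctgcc
Ngp: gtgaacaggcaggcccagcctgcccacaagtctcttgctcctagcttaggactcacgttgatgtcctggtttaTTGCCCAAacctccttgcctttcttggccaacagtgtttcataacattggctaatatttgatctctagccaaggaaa
Camp: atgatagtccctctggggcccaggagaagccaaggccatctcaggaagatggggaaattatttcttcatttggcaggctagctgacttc
Ltf: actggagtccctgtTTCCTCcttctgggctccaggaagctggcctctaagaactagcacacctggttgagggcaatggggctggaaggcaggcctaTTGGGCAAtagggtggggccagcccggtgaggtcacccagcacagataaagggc
Retnlg: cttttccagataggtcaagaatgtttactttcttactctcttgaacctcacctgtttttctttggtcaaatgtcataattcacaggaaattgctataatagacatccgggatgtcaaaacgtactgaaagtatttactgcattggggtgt
Il1b: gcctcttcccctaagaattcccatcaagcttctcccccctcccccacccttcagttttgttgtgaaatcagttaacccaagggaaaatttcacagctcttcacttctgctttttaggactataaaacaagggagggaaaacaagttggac
Cxcr2: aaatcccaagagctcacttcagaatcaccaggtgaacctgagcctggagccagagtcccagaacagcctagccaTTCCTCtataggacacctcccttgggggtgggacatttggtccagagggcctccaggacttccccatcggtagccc
A C/EBP-type match stood in the windows of Ngp and Ltf, and a PU.1-type match in those of S100a8, Ltf and Cxcr2. The other windows held neither string of letters. Every window was 150 bases long except that of Camp, which was 89 bases, so its lack of a match cannot be read against shares counted over windows of 150 bases. A match is a description of letters, not a site of binding.

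The chosen cells made up 7.12%, 8.76%, 4.28%, 13.2%, 16.0% and 16.7% of the cells of libraries 1 to 6, which held 238, 509, 125, 527, 1491 and 1260 of them. Libraries 4, 5 and 6 lay above the other 3. Of the cells with at least 10% of UMIs from S100a8 and S100a9 alone, the chosen cells made up 37.0% (interval 36.1–37.9) in all and 41.4%, 33.3%, 40.3%, 44.8%, 35.1% and 37.2% in the libraries. On that measure libraries 2 and 5 were lowest and library 4 highest. The other 7077 of those cells are called granule-rich neutrophils below. They were not filtered for dividing cells or precursors, and the proliferation gene Mki67 was detected in 31.3% of them. Intervals here and below cover counting error only, since the libraries cannot be used as replicates of a group. The sequenced depth was 47273569 to 123367661 UMIs a library, and the chosen cells held 26335046 UMIs in all. A chosen cell had a median of 5158 UMIs (quartiles 4077 and 6691) from 1349 genes. That is less than the 15438 UMIs and 2626 genes of a granule-rich neutrophil and close to the 5968 UMIs of a B cell (a cell with UMIs of Cd79a and Cd79b and less than 10% from S100a8 and S100a9). Mitochondrial genes took a median of 0.219% of the UMIs of a chosen cell and ribosomal protein genes 2.14%, against 0.628% and 2.93% in granule-rich neutrophils.

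**Figure D1:**
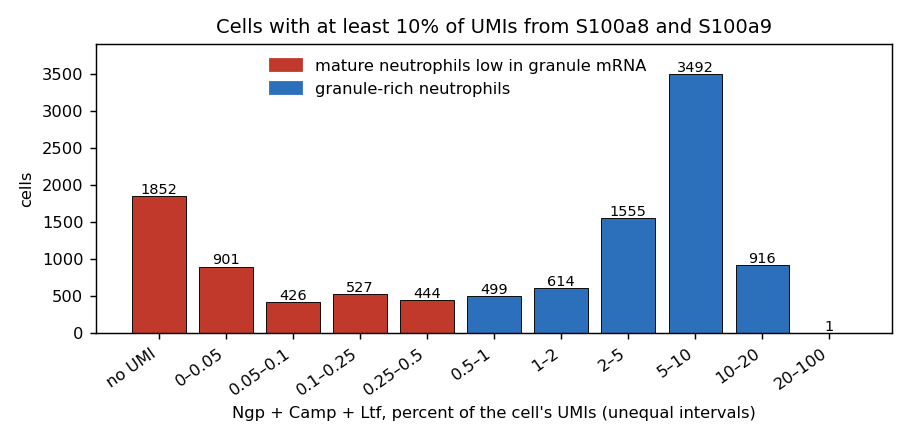
Number of cells (vertical axis) by the percentage of their UMIs from Ngp, Camp and Ltf (horizontal axis, unequal intervals) among the cells with at least 10% of UMIs from S100a8 and S100a9, with red bars below the 0.5% threshold and blue bars above it. The bars of the 4 intervals from 0.05% to 1% hold 426 to 527 cells each, against 1852 cells with no UMI and 3492 cells at 5–10%, but the intervals differ in width and the bars do not show density.

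The threshold cut through a continuous range of granule shares, with 444 cells in the interval just below it and 499 in that from 0.5% to 1%. Of the chosen cells, 1852 (44.6%) held no UMI of Ngp, Camp or Ltf, and 444 (10.7%) held 0.25% to 0.5%. Cells just inside and just outside the granule threshold were close in neutrophil markers and differed more in Cd74 and Cybb. The 160 cells with 0.4–0.5% had 702 counts per 1000000 UMIs (CPM) of Cxcr2, 715 CPM of Csf3r, 40017 CPM of Retnlg and 5826 CPM of Lcn2, and the 142 cells with 0.5–0.6% had 689, 732, 37776 and 6365 CPM. Cd74, the invariant chain of MHC class II, stood at 752 CPM inside and 1791 CPM outside, and Cybb, an oxidase subunit, at 566 and 748 CPM. CPM is taken here over the pooled UMIs of a set of cells, leaving out those of the 5 rule genes. Only 1 end of each transcript is sequenced, so CPM can be set side by side between genes without division by length. At the S100 threshold the 397 cells with 10–12% had 517 CPM of Cxcr2, 2911 CPM of Il1r2 and 6444 CPM of Il1b, and the 463 cells with 8–10% had 388, 1970 and 4669 CPM. Transcripts of monocytes and macrophages were present on both sides of it, with 239 and 314 CPM of Csf1r, the receptor of macrophage colony-stimulating factor, and 2916 and 3759 CPM of Cd74.

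The chosen cells carried neutrophil markers, though these do not single them out among neutrophils. Retnlg, Il1r2, Csf3r and Cxcr2, the 4 marker genes that the rule did not use, were detected in 99.3%, 98.6%, 97.8% and 93.6% of the chosen cells, against 92.2%, 93.4%, 88.4% and 77.0% of granule-rich neutrophils, 22.7%, 51.0%, 73.7% and 23.5% of the deeper monocyte-like cells defined further below, and 7.65%, 8.0%, 5.17% and 3.11% of B cells. On the other hand, 281 cells (6.77%) fell into 3 sub-clusters of the chosen cells, described further below, that were led by genes of other lineages or of granulocyte precursors. One of 204 cells was led by Crip1, S100a4, Ccl2 and the MHC class II genes Cd74, H2-Ab1 and H2-Aa. Another of 67 cells was led by the B cell genes Ebf1, Bach2, Igkc and Cd79a beside the mast cell genes Mcpt4, Cma1 and Cpa3. The last, of 10 cells, was led by Elane, Prtn3 and Mpo, genes of azurophil granules and of early precursors. These cells held medians of 19410, 11182 and 29996 UMIs, and the other 3869 chosen cells held 5010. Values without the 281 cells, a setting chosen after seeing the data, are given beside the main values where they differ most. Only the chosen cells were filtered in this way, not the populations they are compared with, and the criterion itself used macrophage, B cell and azurophil genes, so lower levels of such genes without the 281 cells follow from the filter. Of 32815 distinct barcodes, 138 occurred in more than one library. A total of 27 chosen cells carried such a barcode, and 1 barcode was that of a chosen cell in both of its libraries.

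Markers of other cell types were counted in the chosen cells as summed CPM over fixed lists. The monocyte and macrophage list (16 genes, all above 0, Lgals3 most abundant at 1151 CPM) summed to 4391 CPM, and to 8548, 4605, 4530, 4285, 3852 and 3467 CPM in libraries 1 to 6. Without the 281 cells it summed to 2027 CPM, with 1705 to 2151 CPM in the libraries, so the excess of library 1 lay in those cells. The dendritic cell list (8 genes, Xcr1 at 0, H2-Aa most abundant) summed to 614 CPM, with 1861 CPM in library 1 and 354 to 864 CPM in the others, and to 39.8 CPM without those cells, with 24.8 to 111 CPM in the libraries. The B cell list (8 genes, all above 0, Ighm most abundant) summed to 284 CPM, with 157 to 692 CPM in the libraries and library 2 highest, and to 82.5 CPM without them. The mast cell and basophil list (8 genes, all above 0, Mcpt4 most abundant) summed to 41.5 CPM, with library 5 highest at 98.5 CPM, and to 3.44 CPM without them. The erythroid and megakaryocyte list (8 genes, Alas2 at 0) stood at 174 CPM, 171 CPM of it from Pf4, with library 3 highest at 460 CPM and library 6 lowest at 80.4 CPM, and at 36.0 CPM without those cells. Lists of T and NK cells (8 genes, all above 0, Cd3d most abundant), eosinophils (8 genes, Epx and Ear6 at 0, Ear2 most abundant) and fibroblasts (8 genes, all above 0, Dcn most abundant) summed to 12.6, 11.7 and 17.6 CPM, with ranges over the libraries of 6.18–24.7, 6.97–23.8 and 1.18–47.8 CPM. The part of these transcripts in results other than those given with and without the 281 cells was not tested.

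Against granule-rich neutrophils, most secondary granule, azurophil granule and cell cycle genes tested were lower in the chosen cells, and a minority of the receptor, cytokine, innate sensor and interferon-responsive genes tested were higher, with few or none of those lower. A fold printed here is the ratio of pooled CPM. A gene is called higher or lower when, with 1 CPM added to both sides, it differs at least 2-fold pooled and in the same direction in all 6 libraries. Of 7457 genes with at least 10 CPM in either population, 513 (6.88%) were higher and 2147 (28.8%) lower in the chosen cells, with a median log2 difference of −0.51. The rule chose these 2 populations on mRNA of the same cells, so nothing is read from these percentages and each value is a description. The split depended on the scaling. It became 688 higher and 1260 lower (35.3% higher against 19.3%) with CPM over all UMIs, which moves the median by 0.25 on the log2 scale, and 1078 higher and 1008 lower (51.7% higher) with a median-of-ratios factor, which moves it by 0.51. Both shifts are smaller than the 1 on the log2 scale that a call needs, so the genes named below as higher or lower kept their direction. Without the 281 cells 573 genes were higher and 3235 lower of 7444, with a median of −0.79, and 489 of the 513 and 2124 of the 2147 genes were still called. More genes were then lower in several of the lists described below. They included cytokines and chemokines (4 in place of 0), receptors (4 in place of 2), innate sensors (3 in place of 1), fate transcription factors (6 in place of 3), the ageing list (6 in place of 3) and iron and metabolism genes (3 in place of 0). The survival, immediate early and glycolysis lists also gained lower genes, as given with each list below. In the monocyte and macrophage list 0 of 16 genes were higher and 1 lower with all chosen cells. Without the 281 cells 0 were higher and 11 lower, which the filter itself favoured.

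**Figure D2:**
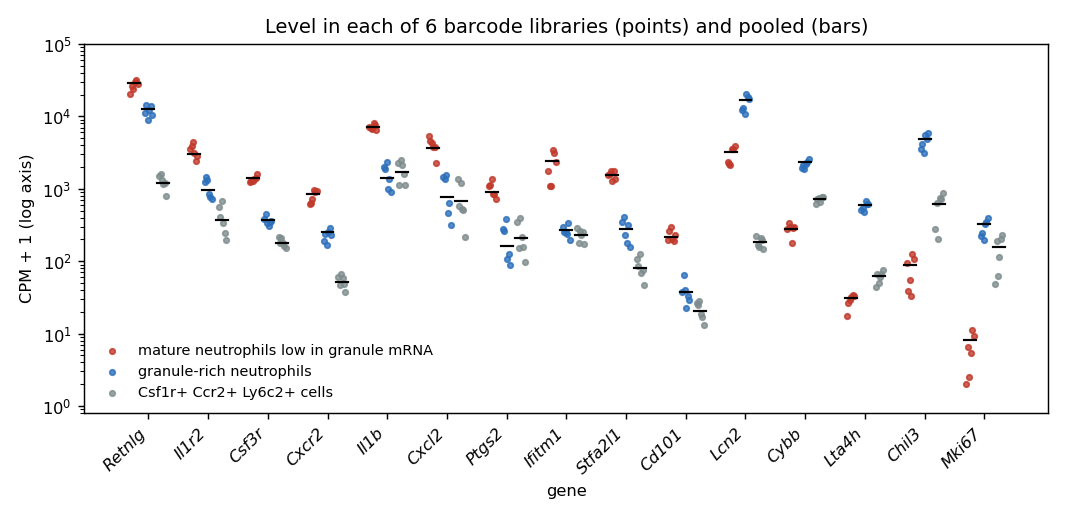
Level of 15 genes in CPM + 1 (vertical log axis) in the chosen cells (red), granule-rich neutrophils (blue) and Csf1r+ Ccr2+ Ly6c2+ cells (grey), with a point for each of the 6 libraries and a black bar for the pooled value. Il1b lies between 6522 and 8210 CPM in the red points and between 913 and 2367 CPM in the blue, and Lta4h, Chil3, Cybb and Mki67 lie lower in red than in blue in every library.

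Granule genes that the rule did not use were lower in most cases. Of 16 such genes of secondary granules and of the same stage of maturation, 13 were lower and 0 higher, with a median log2 difference of −2.04 beside −0.51 for all genes. Chil3, a chitinase-like protein of late marrow precursors, stood at 94.6, 37.7, 54.1, 31.8, 126 and 106 CPM in the chosen cells of libraries 1 to 6 and at 4916 CPM in granule-rich neutrophils, 56.0-fold higher. Its pooled level in the chosen cells was 87.8 CPM, of which 16.7 CPM remained without the 281 cells, one of whose sub-clusters Chil3 helped to lead. Orm1, an acute phase protein made during granulopoiesis, had 0.479 CPM against 198 CPM, a 412-fold difference and the greatest among the 15 lower genes taken by size. Lcn2, the siderophore-binding lipocalin, stood at 2330, 2176, 2142, 3528, 3531 and 3898 CPM against 16698 CPM, 5.13-fold lower, and libraries 4 to 6 lay above libraries 1 to 3. Cd177, a neutrophil surface antigen, stood at 297 CPM against 1135 CPM, and Anxa1, annexin A1, at 853 CPM against 3474 CPM. Abca13 and Itgb2l were 16.4-fold and 5.48-fold lower. Fcnb, ficolin B, was lower at 26.1 CPM against 731 CPM, and stood at 0.921 CPM without the 281 cells, one of whose sub-clusters it helped to lead. Padi4, Hp and Pglyrp1 were not called, at 269, 1748 and 1991 CPM against 288, 2158 and 3139 CPM.

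Azurophil granule genes were lower in 8 of 11 tested and higher in 1, Srgn, with a median log2 difference of −1.83. Srgn encodes the proteoglycan serglycin that packs granule proteins, and stood at 6875 CPM (6328 to 7932 in the libraries) against 2444 CPM. Elane, neutrophil elastase, had 201 CPM in the chosen cells, but 4.11, 0.294 and 0 CPM in libraries 1 to 3 and 322, 310 and 226 CPM in libraries 4 to 6. Without the 281 cells it had 6.20 CPM, and Mpo, myeloperoxidase, had 5.89 CPM in place of 97.1, so most of both transcripts lay in those few cells. Genes of gelatinase granules and of late maturation were divided, with 5 of 12 higher, 2 lower, the other 5 not called and a median of 0.72. Retnlg, a resistin-like protein, stood at 20104, 26380, 24237, 29872, 32268 and 28276 CPM against 12552 CPM in granule-rich neutrophils (8825 to 14300). It was 2.27-fold higher pooled, with no overlap of the libraries, but 0.54 higher on the log2 scale once each cell was thinned to 2000 UMIs, which is under the 2-fold limit. Slpi, an inhibitor of elastase, was 2.03-fold higher and Asprv1, a retroviral-like protease, 3.93-fold higher. The gelatinase granule proteases Mmp8 and Mmp9 were not called, at 1643 and 2033 CPM against 1615 and 1435 CPM.

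Receptors for chemoattractants and adhesion were higher in 11 of 24 tested and lower in 2, with a median log2 difference of 0.86. Cxcr2, the receptor of CXCL1 and CXCL2, stood at 613, 646, 714, 956, 906 and 935 CPM in libraries 1 to 6 against 248 CPM (167 to 289) in granule-rich neutrophils, and was 3.401-fold higher (counting interval 3.34–3.47). The libraries of the 2 populations did not overlap, and libraries 4 to 6 lay above libraries 1 to 3 in the chosen cells. Csf3r, the receptor of granulocyte colony-stimulating factor, stood at 1258, 1278, 1294, 1377, 1391 and 1613 CPM against 368 CPM (303 to 448), 3.84-fold higher. Il1r2, the decoy receptor of interleukin 1, stood at 3494, 3936, 4386, 3095, 2451 and 2861 CPM against 952 CPM (728 to 1442), 3.21-fold higher, and here libraries 1 to 3 lay above libraries 4 to 6. Cxcr1, which lies 30538 bases from Cxcr2 on chromosome 1, was scarce at 24.5 CPM against 2.10 CPM. Ccr1, C5ar1 and Fpr1, receptors of chemokines, of complement C5a and of formyl peptides, were 2.90-fold, 2.00-fold and 2.02-fold higher. Cxcr4, the receptor that draws aged neutrophils to the marrow, was higher, at 377 CPM against 139 CPM. Ltb4r1, the receptor of leukotriene B4, was lower at 88.0 CPM against 381 CPM. Ly6g, the neutrophil antigen used for sorting, was not called at 396 CPM (216 to 480) against 754 CPM (485 to 846), although the libraries did not overlap. The Ly6g difference was past the 2-fold limit, at −1.27 on the log2 scale, once each cell was thinned to 2000 UMIs. The same held for the median of the library folds (−1.09) and for a granule threshold of 0.25% (−1.02). Other settings made it smaller, at −0.67 with CPM over all UMIs and −0.40 with the median-of-ratios factor. Without the cells led by genes of other lineages or of precursors it was −0.76. The highest library of the chosen cells then stood at 525 CPM, inside the range of granule-rich neutrophils.

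Cytokines and chemokines were higher in 10 of 22 tested and lower in 0, with a median log2 difference of 0.92. Il1b, interleukin 1β, stood at 7123, 6950, 6669, 8210, 7548 and 6522 CPM in the chosen cells and at 1390 CPM (913 to 2367) in granule-rich neutrophils, and was 5.18-fold higher (counting interval 5.14–5.22). It was the most abundant cytokine of the chosen cells and gene 10 in their order of abundance, S100a8 and S100a9 included. Cxcl2, the neutrophil-attracting chemokine, stood at 5303, 4640, 4288, 3763, 3806 and 2275 CPM against 764 CPM (311 to 1554), 4.82-fold higher, with library 6 below the others. Ccl6, a chemokine of myeloid cells, stood at 2052 CPM (1905 to 2822) against 311 CPM, and Osm, oncostatin M, at 690 CPM against 312 CPM. Il1rn, the receptor antagonist of interleukin 1, was 2.30-fold higher at 280 CPM, with 485, 364 and 490 CPM in libraries 1 to 3 and 264, 229 and 200 CPM in libraries 4 to 6. Tnf was not called, at 71.3 CPM against 62.3 CPM. Without the 281 cells 4 of the list were also lower, and the median was 0.77. Of the enzymes that make lipid mediators from arachidonic acid, 1 of 10 tested was higher and 4 lower. Ptgs2, the inducible cyclooxygenase, stood at 1097, 1116, 1381, 855, 842 and 726 CPM against 159 CPM (87.2 to 378), 5.65-fold higher, whereas Ptgs1, the constitutive form, was 8.26-fold lower at 7.00 CPM. Lta4h, which makes leukotriene B4, stood at 16.4, 25.9, 27.8, 31.4, 33.3 and 32.0 CPM against 600 CPM (479 to 676), 20.2-fold lower, while Alox5 and Alox5ap, the enzyme and its helper at the step before, were not called at 189 and 1470 CPM against 202 and 1307 CPM.

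Interferon-stimulated genes were higher in 9 of 23 tested and lower in 0, with a median log2 difference of 0.92. Ifitm1, an interferon-induced membrane protein, headed the genes taken by size, at 1749, 1101, 1078, 3401, 3091 and 2363 CPM against 265 CPM (195 to 332), 9.15-fold higher. Libraries 2 and 3 had the lowest and library 4 the highest of these levels, all of them above granule-rich neutrophils. Isg15, Rsad2, Oasl2 and Rtp4 were 3.29-fold, 3.52-fold, 4.23-fold and 4.43-fold higher. The summed list stood at 6314, 3428, 3704, 7124, 7865 and 6389 CPM in libraries 1 to 6, lowest in libraries 2 and 3. Stefin A genes, which encode cystatin-type inhibitors of cysteine proteases, were higher in 5 of the 7 genes tested of their list, which also held Cd300lf, with a median of 1.72. The 7 genes of the family lie within 298582 bases on chromosome 16. Stfa2l1 stood at 1540, 1625, 1789, 1284, 1785 and 1368 CPM against 276 CPM, and Gm5483 at 1662 CPM against 248 CPM. The members of this family are near-identical copies, so the split of reads between them is uncertain. Other genes among the 15 highest by size were Wfdc17, a whey acidic protein-type antiprotease, at 2187, 890, 982, 3651, 3273 and 2739 CPM against 348 CPM, Cd101, a surface protein of mature neutrophils, at 217 CPM (188 to 297) against 36.9 CPM, and Lypd6b, Amica1, Sirpb1b, H2-Q10, Gm5150, Sfxn5, Mpzl3, Steap4 and Sycp2, at 67.0 to 273 CPM and 5.84-fold to 8.47-fold higher.

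Innate sensors and Fc receptors were higher in 8 of 28 tested and lower in 1, with a median of 0.65. Trem1, an amplifying receptor of myeloid cells, stood at 1645 CPM (1514 to 1919) against 478 CPM, Clec4d, a C-type lectin that senses mycobacterial glycolipid, at 2079 CPM (1925 to 2296) against 411 CPM, and Nlrp3, the inflammasome sensor upstream of interleukin 1β processing, at 697 CPM (588 to 1107) against 144 CPM (79.3 to 300). Pycard, the adaptor of that inflammasome, was the lower gene, at 42.2 CPM against 117 CPM. Genes of NF-κB and its feedback were higher in 8 of 19 and lower in 0 (median 0.62), with Nfkbiz and Tnfaip2 at 1141 and 614 CPM against 423 and 208 CPM. Immediate early and heat shock genes were higher in 9 of 27 and lower in 1 (median 0.40), and without the 281 cells higher in 8 and lower in 8. Junb and Egr1, transcription factors, and Dusp1, a phosphatase, all quickly induced by stimuli, were 3.30-fold, 4.22-fold and 4.41-fold higher, and Hsp90aa1, a chaperone, was lower at 188 CPM against 439 CPM. Survival and apoptosis genes were higher in 5 of 21 and lower in 3 (median 0.09, and −0.10 without the 281 cells). Mcl1 and Bcl2l1, which hold back apoptosis, stood at 2061 and 318 CPM against 877 and 112 CPM, the death receptor Fas at 142 CPM against 48.1 CPM, and Bcl2, Bak1 and Casp8 were the lower genes. Without the 281 cells Bax and Cflar were lower too, by 3.18-fold and 2.33-fold.

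NADPH oxidase genes, which make the respiratory burst, were higher in 0 of 7 tested and lower in 2, a share like that of all genes. Cybb, the catalytic subunit, stood at 279, 334, 295, 180, 285 and 300 CPM against 2314 CPM (1858 to 2616), 8.21-fold lower, and Cyba, its membrane partner, at 1246 CPM against 2514 CPM. Cyba lay just past the 2-fold limit, and the upward shifts of 0.25 and 0.51 under the other scalings would take it back inside. Glycolysis and hypoxia genes were higher in 5 of 26 and lower in 2, and lower in 5 without the 281 cells. Their median of −0.35 changed to 0.17 under the median-of-ratios scaling, so no direction is given for the list. The 5 higher genes were Slc2a1 and Slc2a3, which take up glucose, Slc16a3, which exports lactate, Hif1a, the oxygen-regulated transcription factor, and Hcar2, a receptor of β-hydroxybutyrate. Slc2a3 stood at 891 to 1201 CPM in the libraries against 339 CPM, and Slc16a3 at 1836 to 2286 CPM against 767 CPM. Ldha and Ero1l were lower, at 276 and 103 CPM against 717 and 317 CPM. Iron and metabolism genes were higher in 4 of 18 and lower in 0, with the ferritin heavy chain gene Fth1 at 12194 CPM against 5881 CPM and the phagosomal metal transporter gene Slc11a1 at 307 CPM against 89.2 CPM. Of a list for ageing and tissue neutrophils, 9 of 23 were higher and 3 lower (median 0.70), and Siglecf, a marker of long-lived tissue neutrophils, was at 5.08 CPM.

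Cell cycle genes were lower in 20 of 20, with a median log2 difference of −3.99. The granule-rich neutrophils compared here were not filtered for dividing cells or precursors. Mki67, the proliferation antigen, stood at 1.03, 5.59, 1.54, 4.44, 10.2 and 8.40 CPM against 323 CPM (193 to 398), and at 2.95 CPM without the 281 cells. Among fate transcription factors 3 of 21 were higher and 3 lower. Cebpe, which drives secondary granule genes, stood at 12.8, 10.3, 13.9, 15.4, 23.96 and 15.9 CPM against 291 CPM (111 to 356), 17.1-fold lower, whereas Cebpb, the C/EBP factor of emergency granulopoiesis and inflammation, stood at 4477, 4593, 5021, 6073, 3055 and 5307 CPM against 1668 CPM (1113 to 2142), 2.71-fold higher. Myb and Klf5 were the other lower genes, and Maff and Foxo3 the other higher ones. Genes linked to PEPITEM, which is cut from a 14-3-3 protein that B cells release under adiponectin, were higher in 0 of 11 tested and lower in 5. Adipor1, the adiponectin receptor, stood at 455 to 549 CPM in the libraries against 286 CPM (264 to 335). Its 1.79-fold difference passed 2-fold without the 281 cells and under both other scalings. Ywhaz, the 14-3-3 gene that holds the peptide, stood at 507 CPM against 512 CPM. The median of that list, −0.20, became 0.06 and 0.32 under the other scalings, so no direction is given for it.

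Monocyte-like cells, defined by UMIs of Csf1r, Ccr2 and Ly6c2, fewer than 10% of UMIs from S100a8 and S100a9 and less than 0.5% from the granule genes, served as a second comparison. They numbered 6271, with a median of 19631 UMIs. Of 8207 genes tested, 990 (12.1%) were higher and 3752 (45.7%) lower in the chosen cells (median log2 difference −0.87), and as above the rule's genes chose the populations and nothing is read from the percentages. With CPM over all UMIs 693 were higher and 4413 lower (13.6% higher against 20.9%), and with the median-of-ratios factor 2118 higher and 1798 lower (54.1%), which moves the median by −0.30 and 0.87. Neutrophil identity genes were higher in 11 of 12, with a median of 3.47. Retnlg was 23.6-fold, Ly6g 24.3-fold and Cxcr2 16.8-fold higher, and the libraries of the 2 populations did not overlap. Granule genes were higher as well, in 11 of 15 tested for secondary granules and 10 of 11 for gelatinase granules, with Lcn2 at 18.0-fold, Mmp9 at 18.2-fold and Mmp8 at 10.8-fold. All 7 genes tested of the stefin list were higher (median 4.26). Il1b was 4.21-fold, Cxcl2 5.49-fold, Ptgs2 4.27-fold and Ifitm1 10.7-fold higher, so Il1b and Cxcl2 lay above their levels in both comparison populations. Cytokines and chemokines as a list were split, with 9 of 23 higher and 4 lower, the lower ones being Ccl2, Ccl5, Cxcl10 and Tgfb1.

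Of the lists that separate the chosen cells from monocytes in the other direction, 13 of 16 monocyte and macrophage genes, 4 of 4 dendritic cell genes and 18 of 20 cell cycle genes were lower. Csf1r, Ccr2 and Ly6c2, which are among those 13 genes, chose the monocyte-like cells, so their lower level is not a finding. The chaperone genes Hspa8 and Hspa1a were also lower, with Hspa8 at 511 CPM against 2043 CPM and Hspa1a at 84.2 CPM against 442 CPM. Without the 281 cells Hspa8 stood at 272 CPM and Hspa1a at 9.64 CPM, so much of either transcript in the chosen cells lay in those cells. Plcb1, a phospholipase C, Itga1, an integrin, and Gria3, a glutamate receptor subunit, were among the 15 lowest by size, at 25.6, 2.92 and 1.97 CPM against 506, 71.7 and 89.9 CPM. Interferon-stimulated genes were mixed, with 7 of 25 higher and 5 lower, and their median of 0.22 became −0.09 with CPM over all UMIs. Receptors were higher in 10 of 24 and lower in 4, sensors higher in 13 of 28 and lower in 3, NF-κB genes higher in 3 of 19 and lower in 1, NADPH oxidase genes higher in 3 of 7 and lower in 1, glycolysis genes higher in 5 of 26 and lower in 2, and iron genes higher in 7 of 18 and lower in 2. These counts stand beside 12.1% of all genes higher and 45.7% lower. Other lists were divided, with 5 of 27 immediate early and heat shock genes higher and 8 lower, 4 of 22 survival genes higher and 6 lower, 2 of 8 eicosanoid enzymes higher and 3 lower, 5 of 22 fate transcription factors higher and 7 lower, 7 of 23 genes of the ageing list higher and 5 lower, and 1 of 11 PEPITEM-linked genes higher and 4 lower. The medians of those 6 lists changed sign with the scaling. Azurophil genes were higher in 1 of 10 and lower in 3. Without the 281 cells 51.8% of all genes tested were lower, and more were lower among azurophil genes (9, which the filter itself favoured), cytokines (6 in place of 4), interferon-stimulated genes (8 in place of 5), survival genes (9 in place of 6), secondary granule genes (4 in place of 2) and iron and metabolism genes (5 in place of 2).

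Detection was compared after thinning each cell to 2000 UMIs, since the populations differed in depth (medians of 5158, 15438, 19631 and 5968 UMIs in the chosen cells, granule-rich neutrophils, monocyte-like cells and B cells). This left out 28, 21, 5 and 26 cells. At that depth Il1b was detected in 96.4% of the chosen cells, 43.1% of granule-rich neutrophils, 63.1% of monocyte-like cells and 4.79% of B cells, which should lack Il1b. Whether the UMIs in B cells came from free RNA or from droplets with more than 1 cell was not tested. The unthinned shares were 98.7%, 57.4%, 79.1% and 7.70%. Cxcr2 was detected in 72.1%, 31.8%, 6.59% and 1.08% of the 4 populations, and Csf3r in 84.9%, 37.6%, 24.4% and 2.12%. Ptgs2 was detected in 57.9%, 12.8%, 22.4% and 1.80%, Ifitm1 in 65.0%, 15.4%, 18.9% and 2.92%, and Cd101 in 27.6%, 4.68%, 3.0% and 0.495%. Unthinned, the shares of the chosen cells were 93.6% for Cxcr2, 97.8% for Csf3r, 75.8% for Ptgs2, 75.7% for Ifitm1 and 50.6% for Cd101. Ly6g was detected in 36.4% of the chosen cells against 58.5% of granule-rich neutrophils, 2.62% and 0.565% (57.0% and 92.4% unthinned in the first 2). Lta4h was detected in 3.01% of the chosen cells (8.99% unthinned), and in 6.11% of B cells (22.2% unthinned). B cells held 43.7 CPM of Lta4h, so their share is no background level for this gene. Mki67 was found in 0.655% of the chosen cells and 16.3% of granule-rich neutrophils (1.69% and 31.3% unthinned). At 2000 UMIs a chosen cell held a median of 775 genes, a granule-rich neutrophil 751, a monocyte-like cell 1115 and a B cell 1136.

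The chosen cells were not uniform in granule mRNA, and the level of some other genes went with it. They were split into 1852 cells with no UMI of Ngp, Camp and Ltf, 1327 with less than 0.1%, 527 with 0.1% to 0.25% and 444 with 0.25% to 0.5%, with median depths of 4623, 5270, 6026 and 7069 UMIs. A deeper cell is more likely to hold such a UMI, so the split goes with depth. S100a8 and S100a9 went with it too, from a median of 18.5% to 27.3% of UMIs. Of 32 genes followed, 19 were lower and 9 higher at each of the 3 steps in the pooled values, and 18 were lower and 10 higher in the last bin than in the first in all 6 libraries. The 32 genes were picked with earlier results known and are no sample of all genes, of which, among 5896 with at least 10 CPM in the chosen cells, 14.6% were lower and 27.7% higher at each step, and 11.1% lower and 17.6% higher in all 6 libraries. Il1b went from 9633 to 7331, 4594 and 3921 CPM. Ifitm1 went from 3769 to 723 CPM, Ptgs2 from 1256 to 415 CPM and Csf3r from 1891 to 713 CPM. In the other direction Cd177 went from 117 to 632 CPM, Lcn2 from 1960 to 5442 CPM, Cybb from 116 to 548 CPM, and Retnlg from 19730 to 37165 CPM.

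**Figure D3:**
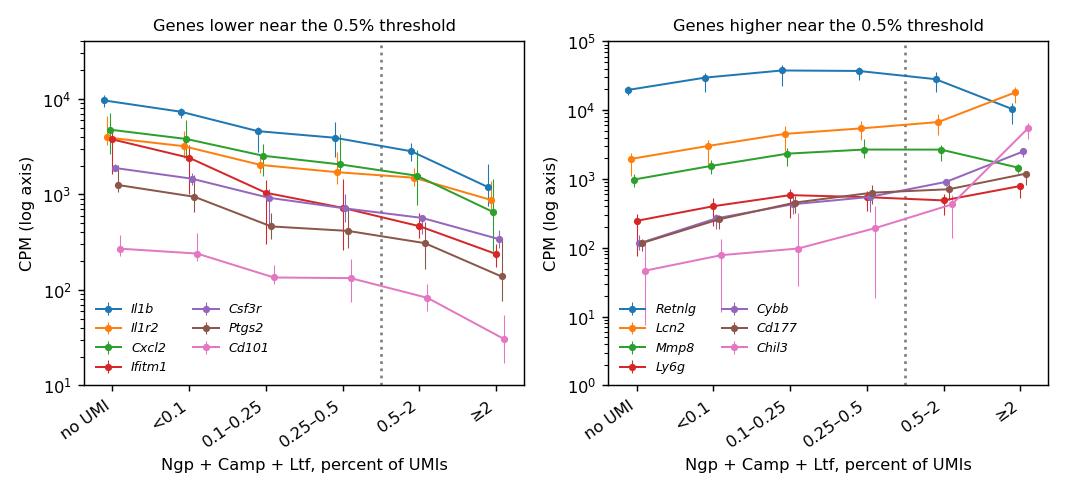
Pooled level in CPM (vertical log axes) of genes that are lower (left) and mostly higher (right) in cells nearer the 0.5% threshold, by the percentage of a cell's UMIs from Ngp, Camp and Ltf (horizontal axes), with lines from the lowest to the highest library. The dotted line is the threshold, chosen cells lie left of it and granule-rich neutrophils right of it, and Il1b goes from 9633 CPM at no UMI to 1190 CPM at 2% and above.

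For some genes, such as Il1b and Ifitm1, the course went on across the threshold. In granule-rich neutrophils with 0.5% to 2% and with at least 2% of granule UMIs, Il1b stood at 2827 and 1190 CPM and Ifitm1 at 464 and 237 CPM. Retnlg did not follow a single direction, with 37782 and 37165 CPM in the last 2 bins of the chosen cells and 28239 and 10372 CPM in the 2 bins of granule-rich neutrophils. Mmp8 and Mmp9, higher at each step in the chosen cells, turned back too. They went from 2678 and 2311 CPM in the last bin of the chosen cells to 1468 and 1340 CPM at 2% and above. Ly6g stood at 544 CPM in the last bin of the chosen cells and at 488 and 791 CPM in granule-rich neutrophils. The 281 cells weighed on the last bin. Without them 15 genes were lower and 10 higher at each step, and 14 were lower and 9 higher in all 6 libraries. Il1b then went from 10001 to 5129 CPM, Ifitm1 from 3997 to 1065 CPM and Retnlg from 20320 to 51618 CPM. Cxcr2, which went from 954 to 675 CPM with all cells, went from 996 to 946 CPM without them.

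Clustering the chosen cells by their own transcripts, without the rule genes, gave 10 sub-clusters, numbered by size. The clusters are described by their leading genes, which the clustering itself selected, and were not tested. Sub-cluster 1 (1220 cells, 29.4%, interval 28.0–30.8) was led by Spp1, osteopontin, with Rps6ka2, Nt5e, the ectonucleotidase CD73, and Phlda1, at small folds of 2.08 to 3.72 over the other cells. Sub-cluster 2 (929 cells, 22.4%) was led by the stress genes Atf3, Osgin1 and Ddit3 with Zfp36, a protein that destabilizes cytokine mRNA, and Hcar2, and had 10787 CPM of Il1b, 4578 CPM of Il1r2 and 2382 CPM of Csf3r. Sub-cluster 4 (559 cells, 13.5%) was led by Ccrl2, Il1a, Cxcl10, Bcl2a1b, Sod2, Traf1, Olr1, Nfkb1 and Tnfaip3. It held 12022 CPM of Il1b, 8982 CPM of Cxcl2 and 1798 CPM of the NF-κB inhibitor gene Nfkbia, where sub-cluster 1 held 7186, 3170 and 232 CPM. Icam1 stood at 71.4 CPM in sub-cluster 4 and at 1.91 CPM in sub-cluster 1. Both sub-clusters 2 and 4 had a median of no granule UMI.

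Sub-cluster 3 (760 cells, 18.3%) lay at the other end. It was led by Adpgk, Itgb2l, Prok2, Gpr27, Cd177 and Ifitm6, had the highest median share of S100a8 and S100a9 of the 10 sub-clusters (28.6%), and a median of 0.136% of granule UMIs. Its Retnlg stood at 54741 CPM, Ly6g at 876 CPM, Lcn2 at 6912 CPM and Mmp8 at 3339 CPM, each the highest of the 10, and its Il1b at 4530 CPM. Sub-cluster 7 (122 cells, 2.94%, interval 2.45–3.50) was led by interferon-stimulated genes alone, among them Ifit3, Ifit1, Herc6, Rsad2 and Usp18, with 2751 CPM of Isg15 against 177 to 552 CPM in sub-clusters 1 to 6 and 8. Sub-cluster 8 (84 cells, 2.02%) was led by Supv3l1, Cc2d2b, Treml4, Gm15345 and Cadm4. It had 1649 CPM of Treml4, a receptor of the TREM family, and 605 CPM of Cx3cr1, the fractalkine receptor, against at most 51.0 and 83.6 CPM in the other 9, while Csf1r stood at 60.2 CPM. Sub-cluster 6 (195 cells, 4.70%) was led by 9 mitochondrial genes and Ccl8, had a median of 2.53% mitochondrial UMIs, and had 4187 CPM of the monocyte and macrophage list. Sub-clusters 5, 9 and 10 made up the 281 cells. Sub-cluster 5 held 15278 CPM of the monocyte and macrophage list, with C1qa at 995 CPM and Ccr2 at 322 CPM, beside 17189 CPM of Retnlg, and had a median of 1.47% mitochondrial UMIs. Sub-cluster 9 held 5918 CPM of the B cell list, and sub-cluster 10 held 15053 CPM of Elane and 462 CPM of Cebpe.

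**Figure D4:**
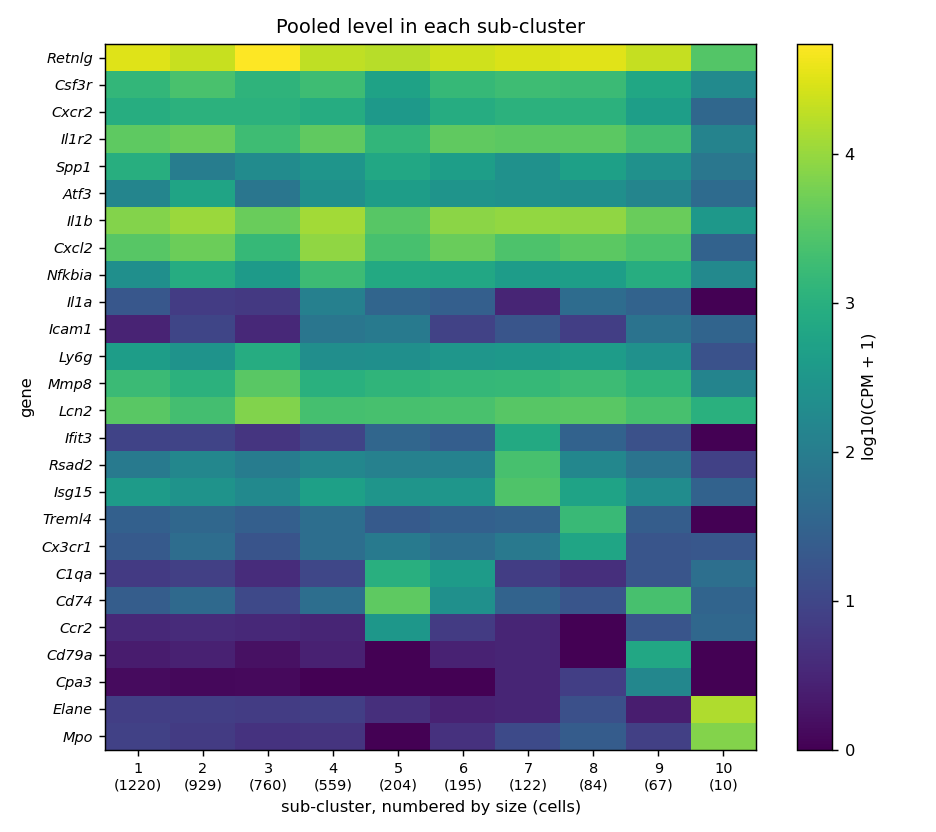
Pooled level, as log10 of CPM + 1 (colour), of 26 genes (vertical axis) in the 10 sub-clusters of the chosen cells (horizontal axis, with the number of cells). Sub-clusters 1 to 4, 6, 7 and 8 have more Csf3r and Cxcr2 than 5, 9 and 10, while Cd74 is high in 5 and 9 and Elane and Mpo in 10. Retnlg and Il1r2 do not separate these groups, with 20629 and 2114 CPM in 9, 19640 CPM of Retnlg in 4 and 1873 CPM of Il1r2 in 3.

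The make-up of the chosen cells differed between libraries. Sub-cluster 3 made up 3.78%, 10.2%, 4.00%, 10.2%, 21.1% and 25.9% of the chosen cells of libraries 1 to 6, which were 9, 52, 5, 54, 314 and 326 cells. Sub-cluster 4 made up 23.1%, 20.6%, 19.2%, 12.1%, 14.1% and 8.02%. Libraries 5 and 6 were highest in sub-cluster 3, with its high Ly6g and Retnlg, and libraries 1 to 3 highest in sub-cluster 4, with its high Cxcl2. Sub-cluster 1 ranged from 21.8% in library 1 to 43.5% in library 4, and sub-cluster 2 from 18.5% in library 2 to 27.3% in library 1. The interferon sub-cluster 7 held 4, 2, 1, 8, 67 and 40 cells, from 0.393% of the chosen cells in library 2 to 4.49% in library 5. Sub-cluster 8 held 0, 1, 1, 12, 40 and 30 cells, from 0.196% in library 2 to 2.68% in library 5, and its 0 of 238 cells in library 1 allow a share of up to 1.26% (3 counts of 238). Sub-cluster 5 was most frequent in library 1, at 13.4%, and least in library 6, at 2.94%. Sub-clusters depended in part on the settings, since a lower resolution of 0.3 merged sub-clusters 1 and 4, and 53.3% of sub-cluster 7 stayed in 1 cluster after centring each library. At that resolution sub-clusters 5 and 9, both among the 281 cells, also fell into 1 cluster with 90.8% of sub-cluster 6, which was not left out, so the edge of the 281 cells depends on the clustering. A sub-cluster mostly of a few libraries cannot be told apart from what sets those libraries apart, and their treatments were not compared.

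**Figure D5:**
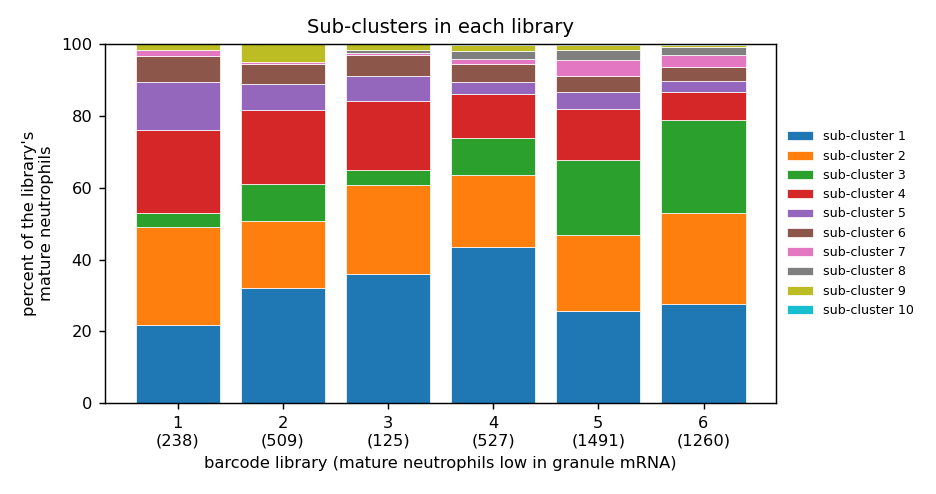
Share of each sub-cluster (colours) in the chosen cells of each of the 6 libraries, in percent (vertical axis), with the number of chosen cells under each library number. Sub-cluster 3 takes 25.9% of library 6 and 3.78% of library 1, and sub-cluster 4 takes 8.02% and 23.1%.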

How the data were processed

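Cells were CD45+ sorted from digested joints and made into 6 libraries with a droplet-based kit that reads the 3′ end of transcripts. The authors aligned reads to mm10 with Cell Ranger (version 7, per the submitters' processing notes), removed ambient RNA with SoupX and doublets with DoubletFinder, and dropped low-quality cells with Seurat. The deposited matrix holds whole-number UMI counts of 20394 genes in 32953 cells, the cells that passed the study's quality control. It is described as corrected for ambient RNA, which can lower scarce transcripts in every cell. No further cell filter or doublet call was applied here.

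Counts were pooled per population and library and scaled to CPM outside the 5 rule genes. Genes with at least 10 CPM in either population were compared. As no label tied the barcode numbers to samples, the matrix counted as 1 sample, so no test was made, and edgeR, DESeq2 and a comparison of PBS with PEPITEM were not run. Intervals are 95% exact Clopper-Pearson for shares and exact Poisson or binomial for sums and folds. Sub-clusters used counts scaled to 10000 a cell, log-transformed, 2000 variable genes without the rule genes, 20 principal components, 15 neighbours and Leiden clustering at resolution 0.5. Detection after thinning drew 2000 UMIs a cell, those of the rule genes included. The rule genes took 20.8%, 33.8%, 1.19% and 0.281% of the pooled unthinned UMIs of chosen cells, granule-rich neutrophils, monocyte-like cells and B cells. The depth left for the other genes was therefore not equal.

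Named genes were members of 29 lists, the 15 called genes of largest fold in each direction with at least 50 CPM, the 20 most abundant genes and the 10 leading genes of each sub-cluster. The members and lists were chosen with earlier results of these data known. Sub-clusters counted as led by other lineages or precursors, a criterion set after seeing the data, when at least 3 of their 10 leading genes belonged to another lineage or to azurophil granules, or when the summed macrophage or B cell list passed 5000 CPM. Alternatives covered the thresholds, scaling, filters, added CPM, equal weights, depth, left-out libraries and clustering. The scripts were tested on simulated data. Python 3.11.15, numpy 2.4.6, scipy 1.17.1, pandas 2.3.3, scanpy 1.11.5, scikit-learn 1.9.0, igraph 0.11.9 and matplotlib 3.10.9 were used.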

Additional observations from a re-analysis of the deposited data

How the results depend on the processing

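The share of chosen cells, 12.6%, became 16.9% and 9.62% with S100 thresholds of 5% and 15%, 11.2% and 14.1% with granule thresholds of 0.25% and 1%, 11.0% as the median of the libraries, 11.3% to 13.4% with 1 library left out, and 11.7% without the 281 cells led by genes of other lineages or of precursors, a setting chosen after seeing the data. Against granule-rich neutrophils the 513 higher and 2147 lower genes became 688 and 1260 with CPM over all UMIs, 1078 and 1008 with the median-of-ratios factor, 388 and 798 with at least 50 CPM, 573 and 3235 without the 281 cells, and 460 to 552 and 1913 to 2298 with 1 library left out. Against monocyte-like cells the 990 higher and 3752 lower genes became 693 and 4413, 2118 and 1798, 731 and 1433, 1085 and 4255, and 962 to 1021 and 3606 to 3843. The number of sub-clusters, 10, became 7 and 13 at resolutions of 0.3 and 0.8. For 19 genes followed under each setting, 297 of 304 values against granule-rich neutrophils and 267 of 285 against monocyte-like cells kept their direction and their side of the 2-fold limit, and 0 reversed. These counts include settings that changed only the minimum CPM. Such settings cannot alter the fold of a gene, so their agreement was fixed in advance. No paired analysis was possible because no label ties the barcode numbers to samples, so that the replicate numbers of the samples could not be used.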

Other observations

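Il6 and Cxcl1, cytokines of the inflamed joint, were scarce in the chosen cells and lay in a few libraries. Il6 had 6.62 CPM pooled, with 21.5 CPM in library 2 and 9.62 CPM in library 5, and 0.123 CPM without the 281 cells led by genes of other lineages or of precursors. Cxcl1 had 6.47 CPM pooled, with 89.6 CPM in library 3, and 0.737 CPM without those cells. Of the 20 most abundant genes of the chosen cells, Gm42418 varied widely between libraries, at 7612, 5582, 7862, 9497, 6053 and 1650 CPM, with library 6 lowest. In granule-rich neutrophils it ranged from 1736 to 8264 CPM.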
